A study of Mus musculus with 18 samples.

Results

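The genes described here encode the nuclear subunits of respiratory complexes II to V and cytochrome c, read in mouse thymocytes, the T cell precursors that make up most of a thymus. Members were the probes whose gene name on the array was Sdha to Sdhd, Cyc1 or Cycs, or began with Uqcr, with Cox followed by a digit from 4 to 8, or with Atp5. This gave 44 of 41174 probes for 38 genes, of which 4 belong to complex II, 5 to complex III, 1 is cytochrome c, 15 belong to complex IV and 13 to complex V. All 44 probes passed the filter on dim probes, as did 37448 probes in all. The brightest probe stands for a gene unless another is named.

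Respiratory complexes sit in the inner mitochondrial membrane and pass electrons from fuel molecules to oxygen. Complex II (succinate dehydrogenase) feeds electrons from the citric acid cycle into ubiquinone, complex III hands them to the mobile carrier cytochrome c, and complex IV (cytochrome c oxidase) gives them to oxygen. Complex V, the ATP synthase, uses the resulting proton gradient to make ATP, and in dividing thymocytes the same chain also serves nucleotide synthesis.

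All mice were C57BL/6 with no treatment named in the labels. On each of 9 arrays read in 2 colours, Cy3 held thymocytes of 1 older mouse (3 mice at 6, 3 at 16 and 3 at 24 months), and Cy5 held thymocytes of 1 month old mice. The design text calls the 1 month material a pool, whereas the sample labels number single mice, and the sources used here do not settle which holds. The dyes were not swapped, so a difference from 1 month cannot be told apart from a difference between Cy3 and Cy5. Comparisons between the older ages do not carry that limit, although the balance of the dyes before correction differed between arrays. Values are log2 of the Cy3 over the Cy5 processed signal, so negative values mean lower in the older mouse. Clear signal above background was seen for 79.6% to 94.2% of features in Cy3. In a whole suspension, fewer cells of a type and less RNA per cell cannot be told apart.

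Each of the 12 thymocyte markers stood clear of background in Cy3 on every array, but so did 6 erythroid and 7 thymic epithelium markers. Clearing background therefore does not tell which cells made up the suspension. The thymocyte markers summed to 834100 to 1096000 in Cy3 at 6 months. At 16 and 24 months the sums were 930300 to 1263000 and 575100 to 1128000. Other cells varied between arrays. Haemoglobin, the red cell oxygen carrier, was at -2.37, -2.40 and -1.50 at 6 months, at 2.45, 1.63 and -0.88 at 16 months, and at -2.39, 0.58 and 1.61 at 24 months (log2 ratio, mean of 3 probes). The summed Cy3 signal of 6 erythroid markers ranged from 15240 to 24470 at 6 months, from 48280 to 462800 at 16 months and from 16110 to 242600 at 24 months. Macrophage and dendritic markers, 8 in number, spanned 22940 to 26500, 44160 to 80880 and 20660 to 73280 in the same order, and 7 of them were above background on all arrays. The sums of 9 B and plasma cell markers reached 15880, 37250 and 27070 at most, and those of 8 granulocyte markers reached 9399, 121500 and 6967. The sums of 7 thymic epithelium markers lay between 5254 and 12290 in Cy3 and between 11130 and 17530 in Cy5. In Cy3, those of 9 stroma and fat markers lay between 8249 and 20500, and those of 7 muscle markers between 4101 and 6647. By the test given below, 5, 3 and 2 epithelium markers were lower than at 1 month at 6, 16 and 24 months, and 0 higher. Of all probes 4.76%, 6.59% and 13.3% were lower. At 16 months 3 B and plasma cell and 3 macrophage and dendritic markers were higher and 0 lower, beside 11.4% of all probes. At 24 months 3 granulocyte markers were lower and 0 higher.

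Member genes were bright. Their median signal percentile among all probes was 98.1, and 29 of 38 lay above the 90th percentile. The dimmest was Cox4i2 at percentile 26.5, the form of subunit IV known from lung and oxygen sensing cells, which cleared background in Cy3 on 8 of 9 arrays. No member spot was saturated or marked as an outlier.

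Against 1 month, more members were lower than higher at 16 and 24 months, and the largest falls were those of Cox7b and Cox7c, small subunits of complex IV. In limma's test with Benjamini-Hochberg adjustment over all probes, 11 members fell and 3 rose at 16 months, where 6.59% of all tested probes fell and 11.4% rose. At 24 months 12 members fell and 3 rose, beside 13.3% and 11.6% of all probes. At 6 months 4 fell and 3 rose, beside 4.76% and 7.61%. The falls amount to 10.5%, 28.9% and 31.6% of members at 6, 16 and 24 months, and the rises to 7.89% at each age. At 24 months they include Atp5b among the falls and Atp5g1 among the rises, whose other probes were called in the opposite direction. The shares of members and of all probes are not matched on brightness or spread. At 6, 16 and 24 months the median SD of 3 arrays was 0.089, 0.140 and 0.085 for members. For all probes it was 0.119, 0.126 and 0.154. The members' median difference was 0.02 at 6 months, -0.11 at 16 months and -0.15 at 24 months, and that of all tested probes -0.01, -0.01 and -0.02. All 3 log ratios were below 0 in 21 of 38 members at 16 months and in 19 at 24 months, beside 30.2% and 30.6% of all probes. The counts rest on few arrays: without 16 month replicate 2, 5 members were called at 16 months in place of 14. Leaving out 24 month replicate 1 or 2 left 7 in place of 15 at 24 months. At 6 months 7 became 1 without 6 month replicate 1, 0 without replicate 2, 4 without replicate 3 and 3 without 24 month replicate 1. No share of all probes called is given for these runs, so the loss cannot be set against that of the whole array.

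**Figure D1:**
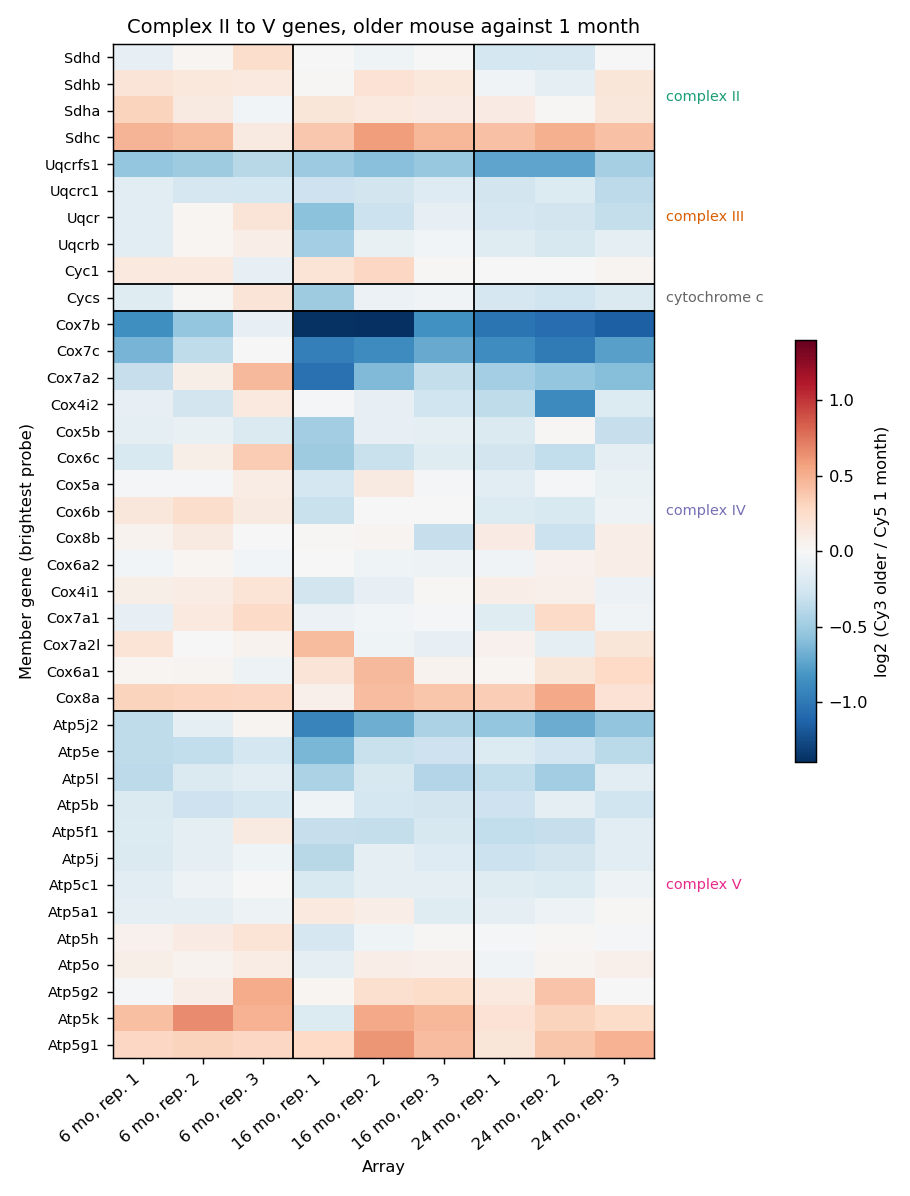
Log2 ratio of the older mouse (Cy3) to 1 month material (Cy5) for the 38 member genes (rows, by complex) on the 9 arrays (columns, 3 per age; mo is months). Blue is lower in the older mouse: Cox7b reached -1.39 on 16 month replicate 2, and the highest member value was 0.66, of Atp5k on 6 month replicate 2.

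The direction of the rises depended on how the dyes were balanced. Without any curve for signal intensity (raw signals corrected for background and centred on each array's median), 25 members fell and 1 rose at 6 months, 25 fell and 0 rose at 16 months, and 33 fell and 2 rose at 24 months. In that setting 22.7%, 21.1% and 34.5% of all probes fell, and 27.9%, 20.9% and 35.6% rose. All 11 members called lower at 16 months were also called lower there, as were 11 of 12 at 24 months. None of the members called higher with the curve was called higher there. Members are brighter than most probes (median signal percentile 98.1), and the shares of all probes are not matched on brightness. The overlap of falls is therefore no independent support for them. The authors' own standardised scores gave 7 falls and 1 rise, 18 and 2, and 21 and 2 at the 3 ages. With those scores 7.44%, 11.0% and 16.9% of all probes fell, and 6.61%, 9.28% and 11.1% rose.

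**Figure D2:**
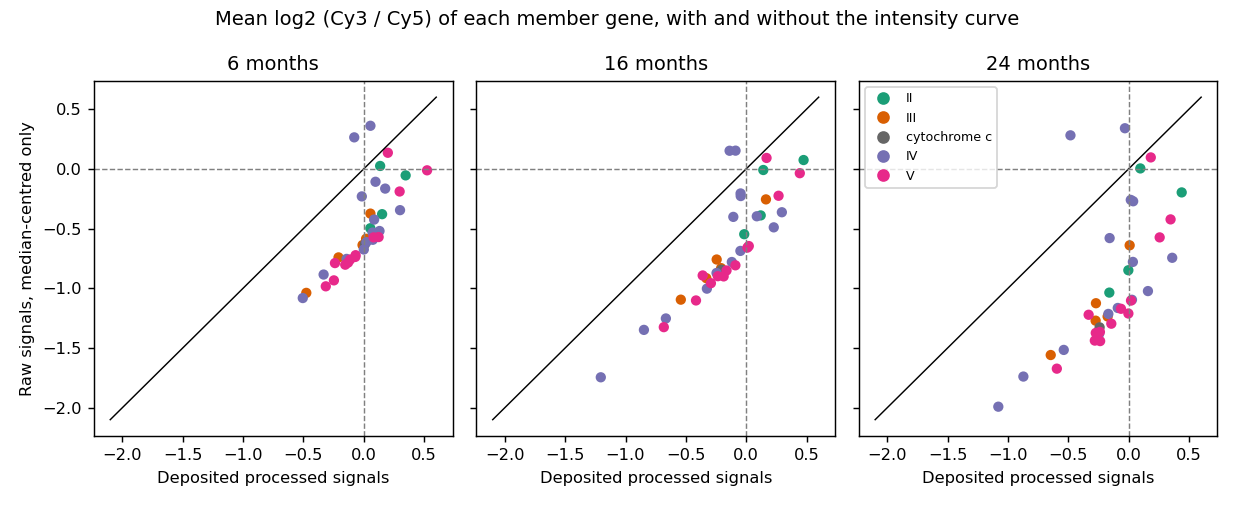
Mean log2 ratio of each member gene to 1 month at 6, 16 and 24 months, from the deposited processed signals (horizontal) and from raw signals centred on the array median with no intensity curve (vertical); the line marks equal values. At 24 months 33 members were called lower without the curve and 12 with it.

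No member differed between the older ages by limma. Of 37448 probes, 0 were called lower at 16 or at 24 months against 6 months, a share of 0%. At an unadjusted p under 0.05, 9 members were lower and 0 higher at 16 against 6 months, where 3.18% of all probes were lower, and 5 were lower and 0 higher at 24 against 6 months, where 5.43% were. Of 38 members, 30 lay below 0 in each of these contrasts, beside 47.3% and 55.2% of all probes. The arrays of the 2 ages did not overlap for 7 lower members and 1 higher member at 16 against 6 months, and for 9 lower members at 24 against 6 months. Among all probes 6.69% and 10.1% were lower without overlap. The matching shares of all probes higher, without overlap or at an unadjusted p under 0.05, are not given. The split of these member counts into lower and higher therefore cannot be set against all probes. Both contrasts against 6 months share the 6 month arrays. Between 24 and 16 months, 0 members were lower at an unadjusted p under 0.05, against 3.52% of all probes. The F test over the 3 ages gave 5 members at an unadjusted p under 0.05, namely Cox6b, Cox7a2, Cox7b, Cox7c and Atp5j2, and 6.64% of all probes, with 0 members called.

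Single arrays moved many members together. On 16 month replicate 1, the array with the highest haemoglobin ratio, 25 of 38 members had their lowest 16 month value, against 35.2% of all probes. On 6 month replicate 1, 22 of 38 members had their lowest 6 month value, against 30.5% of all probes. On 6 month replicate 3, 23 had their highest, a count for which no share of all probes is given. The median log ratio before any intensity curve was -0.17 on 6 month replicate 1, against -2.03 to -1.15 on the other arrays. The part of that dye balance in the members' values was not tested. With haemoglobin as a covariate 6 members fell and 2 rose at 16 months, and 11 fell and 3 rose at 24 months. At 6 months 0 were called with that covariate. There Atp5e was at -0.41 ± 0.083 against -0.31 ± 0.075 without the covariate, and Atp5k at 0.44 ± 0.16 against 0.52 ± 0.13 (SE). When the 3 arrays with the most haemoglobin were dropped, leaving 1 at 16 months, 2 fell and 1 rose at 6 months, 0 were called at 16 months, and 5 fell and 1 rose at 24 months. The lone 16 month array was assumed to vary like the others. Its values there were -0.53 for Uqcrfs1 and 0.46 for Sdhc, against -0.54 and 0.47 over all arrays, but -0.84 for Cox7b and -0.34 for Cox7a2, against -1.20 and -0.67. The SE there was 0.093 for Uqcrfs1 and 0.25 for Cox7b, against 0.064 and 0.15 over all arrays. No share of all probes called is given for these haemoglobin settings, so a loss of member calls cannot be set against that of the whole array. The part of red cells, macrophages, B cells, granulocytes and thymic epithelium in the members' values was not tested.

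Promoters were in the RefSeq table (GRCm38.p6) for 30 of 38 member genes, and the 150 bases before the start are printed for 6 of them. They were picked after the values were seen: Cox7b, Cox7c and Uqcrfs1, the members with the largest falls in complexes IV and III, Uqcr11 (Uqcr on the array) and Atp5e as lower members with a GABPA match, and Atp5g1 as a higher member. Capitals mark matches, on either strand, to the CCAAT box (CCAAT), to GABPA (CCGGAAG), to an NRF1 core (GCGCANGC) or to YY1 (AAGATGGC). GABPA and NRF1 are transcription factors long linked to respiratory genes. The windows are, in order of printing, chrX:106015550-106015699 (plus strand), chr13:86046796-86046945, chr13:30545317-30545466, chr10:80406822-80406971, chr2:174464102-174464251 and chr11:96075632-96075781 (all minus strand).
Cox7b: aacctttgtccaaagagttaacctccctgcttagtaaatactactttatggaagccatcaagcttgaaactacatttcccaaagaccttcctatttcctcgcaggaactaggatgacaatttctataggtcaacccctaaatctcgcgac
Cox7c: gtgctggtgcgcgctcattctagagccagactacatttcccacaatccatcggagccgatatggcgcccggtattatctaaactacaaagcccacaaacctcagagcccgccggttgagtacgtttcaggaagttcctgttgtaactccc
Uqcrfs1: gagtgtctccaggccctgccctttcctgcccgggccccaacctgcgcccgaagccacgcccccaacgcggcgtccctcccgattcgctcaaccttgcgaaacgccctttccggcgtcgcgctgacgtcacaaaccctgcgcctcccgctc
Uqcr11: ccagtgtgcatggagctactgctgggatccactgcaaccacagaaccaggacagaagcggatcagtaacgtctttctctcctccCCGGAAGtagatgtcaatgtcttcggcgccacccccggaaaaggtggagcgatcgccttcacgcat
Atp5e: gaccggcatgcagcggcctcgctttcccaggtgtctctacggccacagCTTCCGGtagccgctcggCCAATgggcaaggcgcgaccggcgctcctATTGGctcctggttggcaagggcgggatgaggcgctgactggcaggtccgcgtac
Atp5g1: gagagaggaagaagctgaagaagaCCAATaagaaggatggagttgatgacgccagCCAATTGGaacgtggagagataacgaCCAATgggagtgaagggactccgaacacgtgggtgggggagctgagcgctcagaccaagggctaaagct

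The windows of Cox7b, Cox7c and Uqcrfs1 held none of the 4 motifs. Those of Uqcr11 and Atp5e held a GABPA match 66 and 102 bases before the start, counted to the match's farthest base. Atp5e also had 2 CCAAT matches. Atp5g1 had 4, of which a plus and a minus strand match overlap. Over the 30 genes, 7 had a GABPA match, 10 an NRF1 core, 9 a CCAAT box and 1 a YY1 match. Of all 32851 promoter windows of that length, 5.52%, 6.57%, 24.5% and 0.861% held them, counted per promoter, while a gene with several starts counts once. The median G and C share was 59.3% over 32 member windows and 54% over all windows.

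Complex II showed 1 change. Sdhc, which anchors the enzyme in the membrane and helps bind its haem, was at 0.48, 0.44 and 0.12 at 6 months, at 0.37, 0.59 and 0.46 at 16 months, and at 0.41, 0.49 and 0.41 at 24 months. All 9 values were above 0 and the ages overlapped. The difference from 1 month was 0.35 ± 0.08, 0.47 ± 0.08 and 0.44 ± 0.08 (SE, n = 3 arrays per age; limma, adjusted p = 0.028, 0.0073 and 0.0083). Without the intensity curve it was -0.05, 0.07 and -0.20 and was not called. The call at 6 months was kept in 14 of 20 alternative settings and lost without 6 month replicate 1 or 2.

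The other 3 genes of complex II did not pass the test at any age. Sdha, the flavoprotein that oxidises succinate, had means from 0.10 to 0.14. Sdhb, the iron-sulphur subunit, was at 0.15, 0.12 and -0.003 in order of age, and its difference between 24 and 16 months, -0.12, had the complex's smallest p there. Sdhd, the other membrane anchor, was at 0.05, -0.02 and -0.16. Its difference between 24 and 6 months was -0.21 ± 0.11 (SE; limma, adjusted p = 0.59).

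Complex III fell in its Rieske and core subunits. Uqcrfs1, the Rieske iron-sulphur protein that takes electrons from ubiquinol, was at -0.54, -0.50 and -0.39 at 6 months. At 16 months it was at -0.51, -0.59 and -0.53, and at 24 months at -0.74, -0.73 and -0.47. Every array was below 0, and the 3 ages overlapped. Against 1 month it fell by 0.48 ± 0.06, 0.54 ± 0.06 and 0.65 ± 0.06 (SE, n = 3 per age; limma, adjusted p = 0.0071, 0.0030 and 0.0021), which is 1.39-fold, 1.46-fold and 1.56-fold lower. The calls at 16 and at 24 months held in 19 of 20 alternative settings each, with 1 lost when the arrays with most haemoglobin were dropped and 1 when only the compared arrays were fitted. Between the older ages it differed by -0.07 (16 against 6 months), -0.17 (24 against 6) and -0.10 (24 against 16), with no call.

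Uqcrc1, a core protein on the matrix side, fell by less but on every array. Its values were -0.16, -0.23 and -0.24 at 6 months, -0.29, -0.26 and -0.18 at 16 months, and -0.26, -0.19 and -0.36 at 24 months. The means were -0.21, -0.25 and -0.27 with an SE of 0.05 (limma, adjusted p = 0.034, 0.015 and 0.0097). The call at 6 months was kept in 11 of 20 alternative settings and lost without any 1 of the 6 month arrays. That at 16 months was kept in 15 of 20 and lost without 16 month replicate 1 or 2. The arrays of the 3 ages overlapped.

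Uqcr and Uqcrb, small accessory subunits, moved with the arrays. Uqcr was at -0.16, 0.03 and 0.18 at 6 months, at -0.58, -0.30 and -0.11 at 16 months and at -0.24, -0.25 and -0.33 at 24 months. Only its fall at 16 months passed (-0.33 ± 0.09 SE; limma, adjusted p = 0.045), and that call was lost in 12 of 20 alternative settings, among them the runs without 16 month replicate 1 or 2. All 24 month arrays lay below all 6 month arrays, by a mean of 0.29 that was not called. The 2 Uqcrb probes were at -0.21 and -0.24 at 16 months and at -0.17 and -0.21 at 24 months, not called. Cyc1, the haem subunit that reduces cytochrome c, was at 0.05, 0.16 and 0.01, not called.

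Cytochrome c gave 2 readings. The brighter Cycs probe was at -0.17, 0.01 and 0.18 at 6 months, at -0.49, -0.08 and -0.04 at 16 months, and at -0.24, -0.28 and -0.21 at 24 months. Its means, 0.01, -0.20 and -0.24, were not called (limma, adjusted p = 0.96, 0.18 and 0.10). The dimmer probe ran from -0.79 to -0.31 over the 9 arrays and fell by 0.44, 0.50 and 0.67 (SE 0.07; limma, adjusted p = 0.010, 0.0043 and 0.0022). Which transcript each probe reads is not known here, and Cycs has processed pseudogenes of near-identical sequence, so its level is uncertain.

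**Figure D3:**
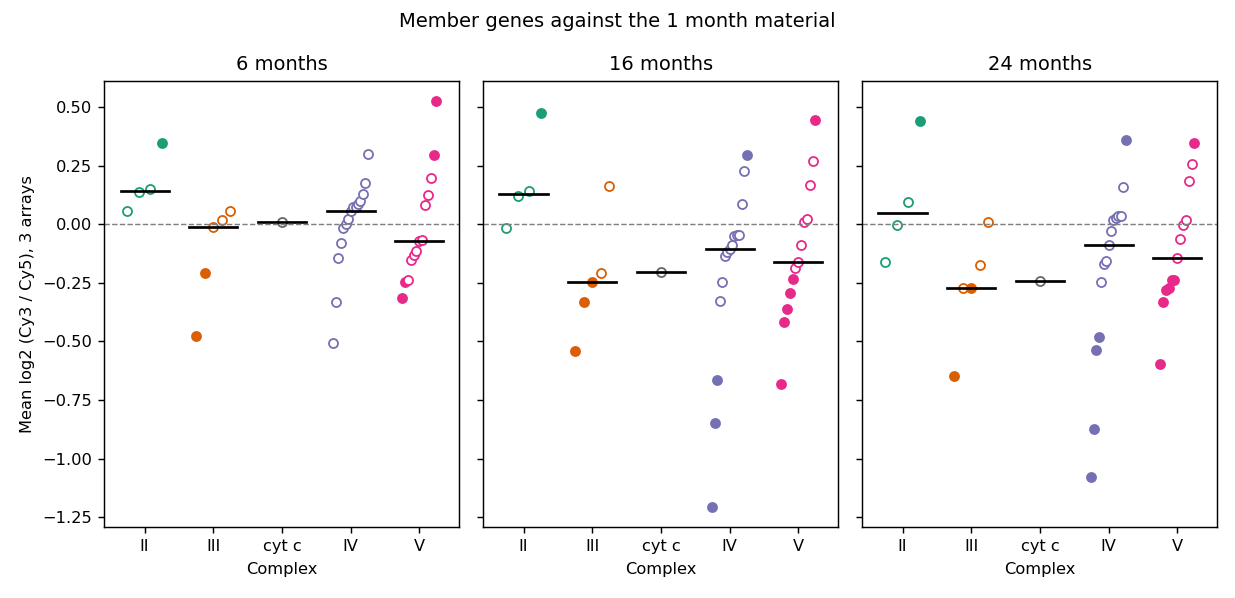
Mean log2 ratio to 1 month (vertical) for each member gene, by complex, at 6, 16 and 24 months; filled points passed limma's adjusted threshold, open points did not, and bars are medians. Complex IV spreads most widely, from -1.20 (Cox7b) to 0.29 (Cox8a) at 16 months.

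In complex IV, 3 small subunits that surround the catalytic core fell, Cox7b, Cox7c and Cox7a2. Cox7b was at -0.86, -0.54 and -0.11 at 6 months. It was at -1.38, -1.39 and -0.84 at 16 months and at -1.03, -1.07 and -1.15 at 24 months. All 9 arrays were below 0, and the 24 month arrays lay below every 6 month array, while 16 month replicate 3 overlapped the 6 month range. Against 1 month it fell by 0.51, 1.20 and 1.08 (SE 0.15; limma, adjusted p = 0.061, 0.0033 and 0.0043), or 1.42-fold, 2.31-fold and 2.11-fold. The calls at 16 and 24 months each held in 19 of 20 alternative settings, with the same exceptions as Uqcrfs1. The difference from 6 months was -0.70 ± 0.21 at 16 months and -0.57 ± 0.21 at 24 months (SE; limma, adjusted p = 0.77 and 0.51), so it was not called.

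Cox7c, a small membrane subunit, was at -0.66, -0.35 and 0.01 at 6 months, at -0.96, -0.88 and -0.70 at 16 months, and at -0.87, -0.99 and -0.76 at 24 months. Both older ages lay wholly below the 6 month arrays. It was lower than at 1 month by 0.33, 0.85 and 0.87 on the fitted scale (SE 0.12; limma, adjusted p = 0.096, 0.0044 and 0.0040), of which the last pair passed. Against 6 months the differences were -0.51 and -0.54 (SE 0.16; limma, adjusted p = 0.77 and 0.48). On the 1 month side, its Cy5 signal on 24 month replicate 3 stood above that on the other 8 arrays.

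Cox7a2, the form of subunit VIIa found in most tissues, was at -0.32, 0.09 and 0.45 at 6 months. It was at -1.04, -0.62 and -0.34 at 16 months and at -0.48, -0.54 and -0.59 at 24 months. The arrays at 16 and 24 months were all below those at 6 months. Its fall from 1 month was 0.67 at 16 months and 0.54 at 24 months (SE 0.16; limma, adjusted p = 0.026 and 0.042). At 6 months it was 0.07 above 1 month, which was not called. The calls at 16 and 24 months were kept in 15 and 12 of 20 alternative settings. With the haemoglobin covariate both were lost, at -0.57 ± 0.19 and -0.52 ± 0.16 (SE; limma, adjusted p = 0.10 and 0.057). Both were also lost when only the compared arrays were fitted. The call at 16 months was also lost without 16 month replicate 1 or 2. That at 24 months was also lost without any 1 of the 24 month arrays, 6 month replicate 2 or 16 month replicate 2.

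**Figure D4:**
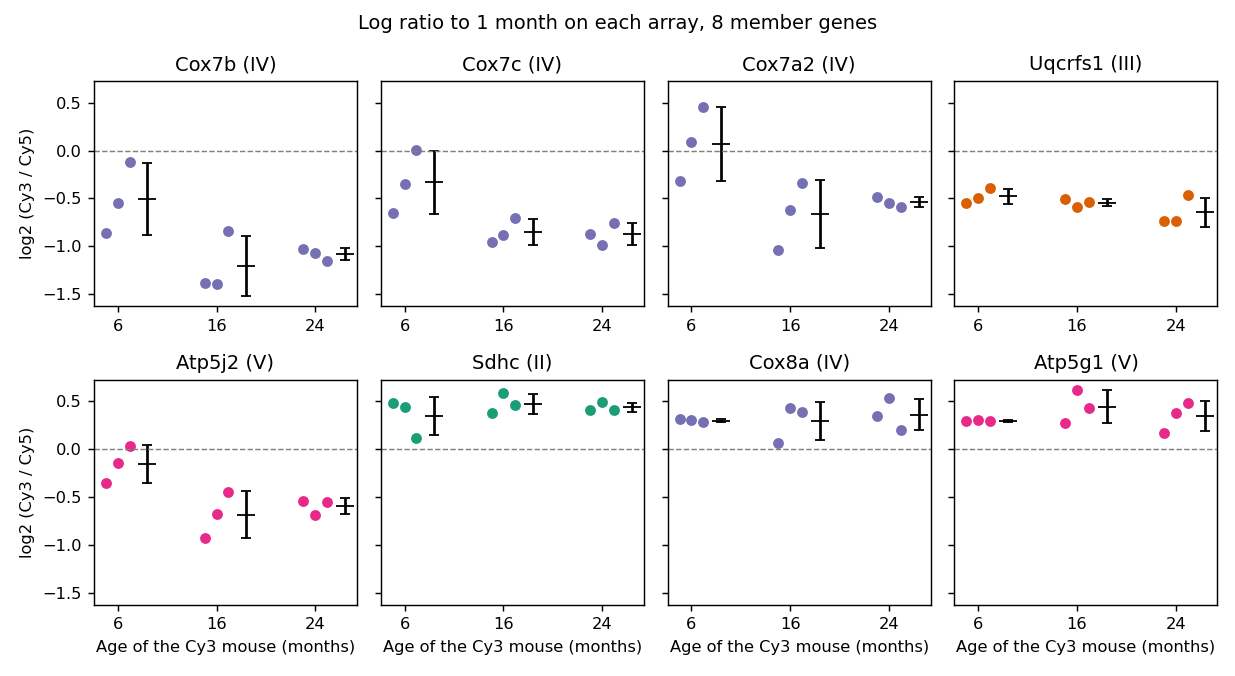
Log2 ratio to 1 month (vertical) on each array for 8 member genes at 6, 16 and 24 months (horizontal); points are single arrays in replicate order, and the bar beside them is the mean and SD of 3. The means of Cox7b, Cox7c, Cox7a2 and Atp5j2 sit lower at 16 and 24 than at 6 months, without passing the test between ages, and Uqcrfs1 was below 0 on all 9 arrays.

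Cox8a, another small subunit, moved the other way. It was at 0.31, 0.30 and 0.29 at 6 months, at 0.07, 0.43 and 0.39 at 16 months, and at 0.34, 0.53 and 0.21 at 24 months, above 0 on every array. The rise from 1 month was 0.29 at 16 months and 0.36 at 24 months (SE 0.08; limma, adjusted p = 0.045 and 0.020), and 0.30 at 6 months did not pass (adjusted p = 0.053). The call at 16 months was kept in 7 of 20 alternative settings and that at 24 months in 15 of 20. Without the intensity curve the sign turned at all 3 ages, to -0.35, -0.36 and -0.74.

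The rest of complex IV lay nearer to 0. Cox4i2 was called lower at 24 months (-0.48 ± 0.13 SE; limma, adjusted p = 0.034), with arrays at -0.36, -0.90 and -0.20, but was 0.28 higher without the intensity curve. With normexp and loess it was -0.13 (adjusted p = 0.072), and without 24 month replicate 2 it was -0.28 (adjusted p = 0.13). The call was also lost without 24 month replicate 1 (adjusted p = 0.080) or 16 month replicate 2 (adjusted p = 0.052). Cox6b, which lies where the enzyme's monomers meet, was at 0.16, 0.25 and 0.13 at 6 months and below 0 on all later arrays. Its difference from 6 months, -0.28 at 16 and -0.34 at 24 months (SE 0.10; limma, adjusted p = 0.77 and 0.48), had no overlap of arrays but did not pass. Cox6c, Cox5b, Cox5a, Cox4i1, Cox6a1, Cox7a2l and the muscle forms Cox6a2, Cox7a1 and Cox8b were not called at any age, with means from -0.33 (Cox6c at 16 months) to 0.23 (Cox6a1 at 16 months). Cox6a1 was the 1 member whose 16 month arrays all lay above the 6 month arrays.

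In complex V, the membrane subunits Atp5j2 and Atp5l and the stalk subunits Atp5f1 and Atp5j fell at 16 and 24 months, whereas the membrane subunit Atp5k rose at 6 months and the stalk subunits Atp5h and Atp5o were not called. Atp5j2, subunit f of the membrane part, was at -0.35, -0.14 and 0.03 at 6 months, at -0.93, -0.68 and -0.44 at 16 months, and at -0.54, -0.69 and -0.55 at 24 months. All arrays at 16 and 24 months lay below all 6 month arrays. Its difference from 1 month was -0.15, -0.68 and -0.60 (SE 0.10; limma, adjusted p = 0.33, 0.0056 and 0.0076). Against 6 months it was -0.53 and -0.44 (SE 0.14; limma, adjusted p = 0.77 and 0.49), not called.

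Atp5l, subunit g of the same part, was below 0 on all 9 arrays, from -0.49 on 24 month replicate 2 to -0.15 on 6 month replicate 3. It fell at 16 months (-0.36) and 24 months (-0.33; SE 0.08; limma, adjusted p = 0.018 and 0.020). Its call at 16 months was kept in 15 of 20 alternative settings and lost without any 1 of the 16 month arrays. Atp5e, the epsilon subunit of the F1 head, was at -0.35, -0.34 and -0.25 at 6 months, at -0.64, -0.32 and -0.29 at 16 months, and at -0.19, -0.27 and -0.38 at 24 months. It fell at each age, by 0.31, 0.42 and 0.28 (SE 0.08; limma, adjusted p = 0.035, 0.011 and 0.032), with overlapping ages. Its calls at 6 and 24 months were each kept in 13 of 20 alternative settings. Each was lost without any 1 of the arrays of that age. The stalk subunits Atp5f1 (subunit b, now Atp5pb) and Atp5j (F6) fell at 16 months, by 0.29 and 0.24, and at 24 months, by 0.27 and 0.24.

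The c ring turns as protons pass, and of its 2 member genes 1 was called higher, by 1 of its 2 probes. Atp5g1 encodes 1 of several precursors of the same c subunit and was at 0.29, 0.31 and 0.29 at 6 months, at 0.28, 0.62 and 0.44 at 16 months, and at 0.17, 0.38 and 0.49 at 24 months. It rose by 0.30, 0.44 and 0.35 (SE 0.08; limma, adjusted p = 0.046, 0.0096 and 0.019), but its sign turned without the intensity curve, to -0.19, -0.04 and -0.42. The call at 6 months was kept in 7 of 20 alternative settings and lost without any 1 of the 6 month arrays. Its dimmer probe was called lower at 24 months (-0.15). Atp5g2, another such precursor, was at 0.20, 0.17 and 0.18, not called.

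Atp5k, subunit e, was at 0.42, 0.66 and 0.49 at 6 months and rose there by 0.52 ± 0.13 (SE; limma, adjusted p = 0.037), while without the intensity curve it was at -0.01. The call was kept in 11 of 20 alternative settings and lost without any 1 of the 6 month arrays. At 16 months Atp5k was at -0.19, 0.53 and 0.46, and at 24 months at 0.21, 0.31 and 0.25, not called.

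Probes of the F1 head subunits alpha and beta disagreed. The brighter probe of Atp5b, the catalytic beta subunit, was at -0.25, -0.19 and -0.24 and passed at 6 and 24 months (SE 0.06; limma, adjusted p = 0.032 and 0.023). The call at 6 months was kept in 11 of 20 alternative settings and lost without any 1 of the 6 month arrays. The other probe of Atp5b was at 0.16, 0.31 and 0.24 and was called higher at 16 and 24 months, so no direction is given for the gene. For Atp5a1, the alpha subunit, the brighter probe lay between -0.11 and 0.02 and was not called, while the dimmer one fell at 16 and 24 months, by 0.28 and 0.30. Atp5c1, Atp5h and Atp5o, the gamma, d and OSCP subunits, were not called at any age.

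Subunits that the array names otherwise were read beside the members. Usmg5 and Atp5mpl, small subunits of the ATP synthase, fell by 0.59 and 0.55 at 16 months and by 0.56 and 0.50 at 24 months. Ndufa4, now placed in complex IV, fell by 0.38 and 0.30. Uqcrh, the hinge protein of complex III, was at -0.18 and -0.21, and Cox6b2 and Cyct, testis forms, were at -0.09 and -0.10 at 16 months, all not called. Of 30 genes named Nduf, read as the complex I list, 3 fell and 2 rose at 6 months, 14 and 2 at 16 months and 15 and 2 at 24 months. That list was taken by name and includes Ndufa4. Of all probes 4.76%, 6.59% and 13.3% fell at 6, 16 and 24 months, and 7.61%, 11.4% and 11.6% rose. Ndufs4 (-0.73) and Ndufa12 (-0.56) fell at 16 months. Mitochondrially encoded subunits were not analysed here.

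Among 20 assembly factors of complexes II to V, 1 fell and 1 rose at 6 months, and 6 fell and 4 rose at 16 months. At 24 months 8 fell and 0 rose. The shares of all probes were 4.76%, 6.59% and 13.3% lower and 7.61%, 11.4% and 11.6% higher in order of age. Sdhaf4, which helps mature Sdha, fell by 0.61 at 16 and 0.84 at 24 months, and Tmem70, needed for ATP synthase assembly, by 0.55 and 0.69. Surf1, a complex IV assembly factor, rose by 0.33 at 16 months, and Coa5 by 0.32. Their median difference was 0.03 at 16 months and -0.11 at 24 months.

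Of 15 regulators of respiratory genes, 2 fell and 4 rose at 6 months, 1 and 1 at 16 months, and 3 and 3 at 24 months. Beside them, 4.76%, 6.59% and 13.3% of all probes fell in order of age, and 7.61%, 11.4% and 11.6% rose. Gabpa, which encodes the factor whose motif was searched, fell by 0.37, 0.47 and 0.67, and Tfb2m, a mitochondrial transcription factor, by 0.52 at 24 months. Esrra, a nuclear receptor for metabolic genes, rose by 0.49, 0.54 and 0.46, and Nrf1 by 0.46 at 24 months.

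Of 10 tricarboxylic acid cycle genes 1 fell and 1 rose at 16 months, and 4 fell and 1 rose at 24 months. Dld and Pdha1, parts of pyruvate dehydrogenase, fell by 0.37 and 0.35 at 24 months, and Idh3b rose by 0.41 at 16 months. Of 13 glycolysis genes 1 fell and 3 rose at 16 months, and 2 fell and 3 rose at 24 months. For both lists, the shares of all probes were 6.59% lower and 11.4% higher at 16 months, and 13.3% and 11.6% at 24 months. No change of either pathway is read from these counts. Pkm, pyruvate kinase, rose by 0.83 and 0.73 and Pfkp, a phosphofructokinase, by 0.60 and 0.37. Ldha, lactate dehydrogenase, fell by 0.33 and 0.38, and Eno1 by 0.90 at 24 months.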

How the data were processed

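Thymocyte RNA of 9 older mice (Cy3) and of 1 month old mice (Cy5) was hybridised to 9 Agilent arrays. The file deposited for the Cy3 sample equals that of its Cy5 partner on each array. It gives intensity values per feature. Per the file headers, the authors' processed intensity had background subtracted, spatial trends removed and the dyes balanced by LOWESS (smooth factor 0.25). Feature Extraction is version 7.5.1 in the headers and 7.1 in the submitters' processing notes. The authors' value table holds a score for each channel, which was checked against the standardised log10 processed signal and matched it.

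Log2 ratios of the processed signals were used. Spots marked as outliers were left out, and replicate spots averaged. A probe was tested when it cleared background on the 3 Cy3 arrays of an age or on the 9 Cy5 arrays; 133 tested probes were saturated somewhere. One model with a mean per age (limma 3.58.1, R 4.3.3, empirical Bayes, residual degrees of freedom 6) was fitted to all 9 arrays, two-sided, called at a Benjamini-Hochberg adjusted p under 0.05. The labels say that samples are separate mice. Precision is limited by having 3 arrays per age. The fit was tested on simulated data. Software included Python 3.11.15, pandas 2.3.3, numpy 2.4.6 and, for figures, matplotlib 3.10.9.

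Members, lists and tests were chosen with earlier results of these data known. Named genes were Cox7b, Cox7c, Uqcrfs1, up to 3 called members per complex, comparison and direction (otherwise the smallest p), genes whose probes disagreed, and up to 2 called genes per direction of each further list. A gene that this rule picks from a further list is not reported here. Further members were added after their values were seen so that each is accounted for. Marker lists (thymocyte, erythroid, thymic epithelium, B and plasma cell, macrophage and dendritic, granulocyte, stroma and fat, muscle) are given as signal sums, and some also as counts of called genes. Alternatives were another background correction with loess, median centring, authors' scores, no filter on dim probes, no saturated probes, the mean over probes, the compared arrays alone, a replicate block, a haemoglobin covariate and leaving out each array. After the data were seen, centring without an intensity curve and leaving out the 3 arrays highest in haemoglobin were added. Same-numbered arrays did not deviate together (correlations from -0.31 to 0.10), so numbers were not used as pairs.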

Additional observations from a re-analysis of the deposited data

Results flagged for a closer look

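Cox7c stood out in the 1 month channel on the array of 24 month replicate 3, where its centred Cy5 signal was 4.90 on the log2 scale, against a median of 4.64 over the 9 arrays and 4.67 on the nearest other. The gap was 0.665 of the whole range. It was the only 1 of 38 members so far from the rest in that channel, and chance gives about 1 such flag in 20 groups. The Cox7c log ratio on that array was -0.76, the highest of the 24 month arrays.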

How the results depend on the processing

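No member was called between the older ages, or in the F test, in any setting run. Median centring, no filter on dim probes, leaving out saturated probes, the mean over probes and normexp with loess kept each count of called members within 1.5 times. At 6, 16 and 24 months against 1 month, with 7, 14 and 15 members called, the compared arrays alone gave 1, 5 and 0, the haemoglobin covariate gave 0 and 8 at 6 and 16 months, centring without an intensity curve 26, 25 and 35, and the arrays without the 3 highest in haemoglobin 3, 0 and 6. The authors' scores gave 23 at 24 months. The replicate block gave 3 at 6 months and changed no other count of called members by over 1.5 times, and numbers do not pair the mice. Leaving out single arrays gave 0 to 8, 5 to 14 and 7 to 18. The share of all probes called is not given for the compared arrays alone, the replicate block or the runs without single arrays. Their losses of member calls therefore cannot be set against the whole array. Without an intensity curve the sign turned for Atp5g1 (-0.19, -0.037 and -0.42), Cox8a (-0.35, -0.36 and -0.74), Sdhc at 6 and 24 months (-0.055 and -0.20), Atp5k (-0.012) and Cycs (-0.63) at 6 months, and, between 24 and 16 months, Atp5e (-0.34), Cox4i2 (0.13) and Cox7b (-0.25). Among uncalled values, Cycs at 6 months turned with the mean over probes (-0.21), the authors' scores (-0.053) and the haemoglobin covariate (-0.043), and ran from -0.078 to 0.098 when single arrays were left out. Between 24 and 16 months, Cycs ran from -0.18 to 0.044 and Cox7c from -0.082 to 0.049 when single arrays were left out, and Cox7b was -0.20 without the 3 arrays highest in haemoglobin. The cause was not tested. A block for extraction day was not run, since all arrays share 1 day.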
